A study of Mus musculus with 8 samples.

Results

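Lhx2, Lhx9, Wnt8b, Zic1, Zic4, Pou4f1, Emx2, En1 and Irx3 are 9 genes that mark regions of the developing nervous system, among them the forebrain, the midbrain, the dorsal midline and the sensory ganglia. The 9 genes were chosen with earlier results of these data known. Their probe sets were taken by name: every probe set whose gene symbol in the platform annotation was one of these genes was included. This gave 17 of the 45101 probe sets on the array and 9 of the 18193 genes that could be tested. Lhx9 had 4 probe sets, Wnt8b had 3, Zic1, Zic4 and Pou4f1 had 2 each, and the other genes had 1 each. For tests of genes, 1 probe set stood for each gene, the one of highest average signal on the 8 arrays.

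The study asked how the loss of menin, the product of the tumour suppressor gene Men1, changes gene expression in stem cells and in islet-like cells made from them. The 4 groups were Men1-KO PILECs, WT PILECs, Men1-KO mESCs and WT mESCs, with 2 arrays from separate cultures in each. Mouse embryonic stem cells (mESCs) were of the wild-type line TC-1 or of the menin-null line 3.2N, both on the 129S6/SvEvTac background, and were kept on feeder cells and then made feeder-free. Pancreatic islet-like endocrine cells (PILECs) were derived from each line in culture through embryoid bodies and a final step with nicotinamide. Since a single line stood for each genotype, effects of Men1 and of the line cannot be told apart, and errors cover only culture-to-culture spread. Values are log2 signals, so a difference of 1 is a 2-fold change.

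The 2 arrays of a group correlated at 0.993 to 0.997 over all 45101 probe sets. Men1 itself was 4.01-fold lower in Men1-KO than in WT PILECs and 4.42-fold lower in Men1-KO than in WT mESCs. The label of the differentiated cells was set against marker genes. Of the 15 measured islet endocrine markers of 20 listed, 9 were higher in Men1-KO PILECs than in Men1-KO mESCs and 7 were higher in WT PILECs than in WT mESCs, while 1 was lower in the Men1-KO cells and 2 in the WT cells. Of all genes 28.9% were higher in the Men1-KO cells and 27.8% in the WT cells, and 36.1% were lower in the Men1-KO cells and 35.3% in the WT cells. Ins2, which encodes insulin, passed the test in neither genotype (0.18 in Men1-KO and 0.41 in WT cells, PILECs minus mESCs). Pdx1, the main transcription factor of the pancreas, averaged 5.36 in Men1-KO PILECs and 5.38 in WT PILECs, within the range of olfactory and vomeronasal receptor genes on this array. Other listed islet markers went both ways. Neurod1 averaged 8.68 in Men1-KO and 8.95 in WT PILECs, against 8.84 in Men1-KO and 9.40 in WT mESCs. Ppy and Pcsk1 also averaged lower in PILECs than in mESCs of both genotypes, while Chgb and Sst averaged higher. Chgb averaged 11.29 in Men1-KO and 10.75 in WT PILECs, against 5.67 in Men1-KO and 5.15 in WT mESCs. Sst averaged 8.10 in Men1-KO and 9.06 in WT PILECs, against 6.66 in Men1-KO and 6.64 in WT mESCs. The paper reported islet hormone transcripts by RT-PCR and C-peptide staining in PILECs of both genotypes. It also reported a rise of NeuroD1 protein with differentiation in both. Of 19 neuronal genes, 18 rose in Men1-KO PILECs and 19 rose in WT PILECs relative to mESCs, with median rises of 3.89 in Men1-KO and 3.53 in WT cells.

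The early nervous system is divided along its length and from back to belly by signals from organising centres, and the identity of each region is held by transcription factors. Lhx2 and Lhx9 are LIM homeodomain factors of the forebrain, where Lhx2 is needed for the eye and the cerebral cortex. Wnt8b is a secreted Wnt ligand of the cortical hem and dorsal diencephalon, Zic1 and Zic4 are zinc finger factors of the dorsal neural tube and cerebellum, and Pou4f1 is a POU domain factor of sensory neurons. Emx2 patterns the cortex and hippocampus, En1 marks the border of midbrain and hindbrain, and Irx3 acts in the thalamus and spinal cord. Several of these genes also work outside the nervous system, Lhx9 and Emx2 in the gonad and En1 in the limb. Menin binds the histone methyltransferases MLL1 and MLL2, whose CXXC domain recognises unmethylated CG dinucleotides, and these enzymes place methyl groups on lysine 4 of histone H3 at promoters.

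The promoters of 4 of the genes are shown because Zic1 and Zic4 are neighbours that face away from each other on chromosome 9 and both fell in Men1-KO PILECs, as did Wnt8b, while Irx3 is a gene that was not called. Each window runs from 250 bases before to 50 bases after the annotated start, is written 5′ to 3′ on the strand of the gene, and comes from RefSeq on build GRCm38.p6. Capitals mark every CG dinucleotide and the homeodomain core TAATTA, both of which read the same on either strand. The Zic1 window lies at chr9:91365719-91366018 (minus strand), the Zic4 window at chr9:91368722-91369021 (plus strand), the Wnt8b window at chr19:44493222-44493521 (plus strand) and the Irx3 window at chr8:91801605-91801904 (minus strand).
Zic1: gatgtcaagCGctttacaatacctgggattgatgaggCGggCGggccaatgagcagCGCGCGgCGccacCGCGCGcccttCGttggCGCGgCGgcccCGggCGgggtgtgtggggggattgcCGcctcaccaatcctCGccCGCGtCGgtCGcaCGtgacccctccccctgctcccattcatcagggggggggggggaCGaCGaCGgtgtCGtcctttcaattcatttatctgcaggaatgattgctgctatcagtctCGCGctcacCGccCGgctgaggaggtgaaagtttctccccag
Zic4: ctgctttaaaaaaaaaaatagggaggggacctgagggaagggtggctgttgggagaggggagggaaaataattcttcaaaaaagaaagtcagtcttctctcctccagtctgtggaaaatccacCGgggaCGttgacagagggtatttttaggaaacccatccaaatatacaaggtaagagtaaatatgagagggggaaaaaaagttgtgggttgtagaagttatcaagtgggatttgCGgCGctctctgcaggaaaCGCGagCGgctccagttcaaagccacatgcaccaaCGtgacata
Wnt8b: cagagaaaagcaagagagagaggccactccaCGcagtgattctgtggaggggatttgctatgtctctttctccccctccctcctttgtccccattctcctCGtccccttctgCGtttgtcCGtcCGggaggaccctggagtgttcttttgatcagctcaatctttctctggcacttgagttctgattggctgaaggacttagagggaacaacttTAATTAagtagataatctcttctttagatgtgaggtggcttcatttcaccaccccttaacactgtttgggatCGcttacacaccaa
Irx3: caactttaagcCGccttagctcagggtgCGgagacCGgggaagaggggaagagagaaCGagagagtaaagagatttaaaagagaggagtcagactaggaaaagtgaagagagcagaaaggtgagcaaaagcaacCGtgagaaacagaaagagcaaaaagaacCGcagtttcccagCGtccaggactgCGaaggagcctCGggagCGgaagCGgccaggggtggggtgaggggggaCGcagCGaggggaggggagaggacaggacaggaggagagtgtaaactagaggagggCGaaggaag

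All 9 genes matched the RefSeq promoter table, with 10 windows in all since Lhx2 has 2 annotated starts. The Zic1 window holds 31 CG dinucleotides and its neighbour Zic4 holds 8, while Wnt8b holds 6 and Irx3 holds 14. The remaining windows range from 6 in Lhx9 to 57 in Pou4f1, with 34 and 29 in the Lhx2 windows, 26 in Emx2 and 23 in En1. Over the 32851 windows of the table the median was 7, the highest was 67, and 94.6% held at least 1 CG. The 6 genes found lower in Men1-KO PILECs included the lowest (6) and the highest (57) of the 10 windows. Of all windows in the table, 43.6% held fewer CG than the first and 99.8% held fewer than the second. TAATTA occurred in the Wnt8b and Emx2 windows, 2 of 10, and in 5.29% of all windows.

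In PILECs, 6 of the 9 genes were lower without menin and 0 were higher. Lhx2, Lhx9, Wnt8b, Zic1, Zic4 and Pou4f1 fell by 1.64-fold to 2.86-fold, whereas Emx2, En1 and Irx3 did not pass the test. Of all genes, 4.42% were lower and 2.26% were higher in the same comparison (limma, adjusted p under 0.05, the threshold for a call). In counts these were 804 and 412 of 18193 genes, or 732 and 627 after a second quantile normalization. The median difference of the 9 genes was -0.79, against -0.01 for all genes. Since the 9 genes were chosen with earlier results of these data known, these contrasts with all genes are no test of the set. For 8 of the 9, both Men1-KO PILEC arrays read below both WT PILEC arrays, an order seen in 30.0% of all genes. These were bulk cultures, so fewer cells of a type and less RNA per cell cannot be told apart.

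**Figure D1:**
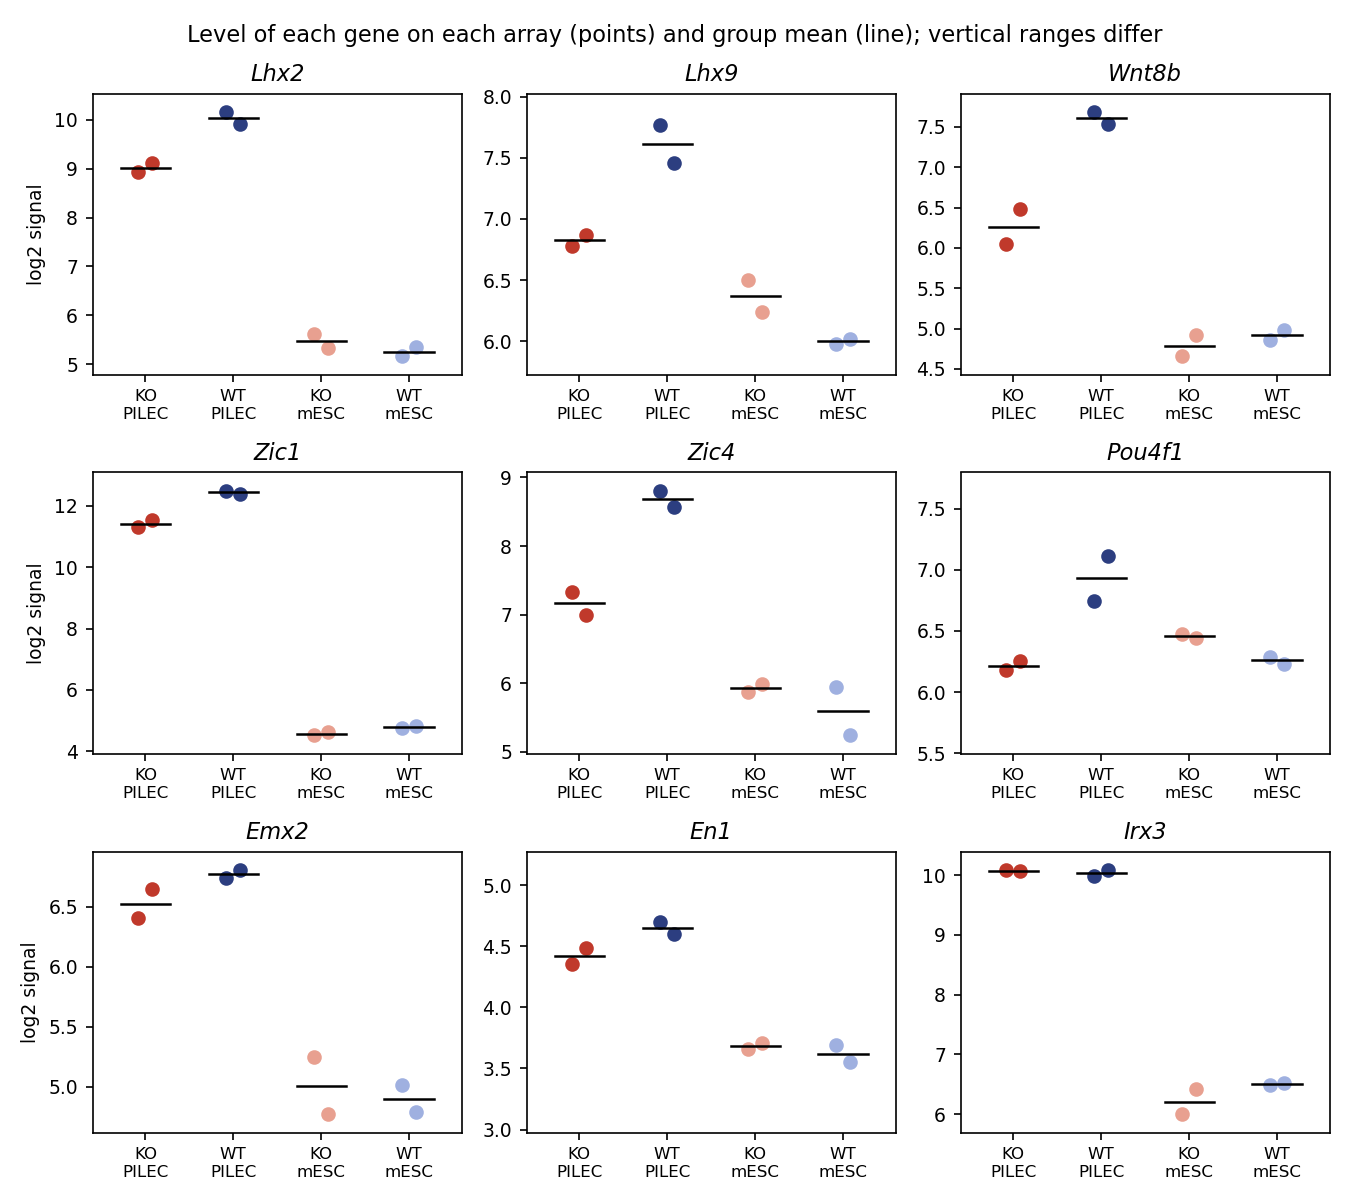
Log2 signal of each gene on each of the 8 arrays (points) with the group mean (line), in Men1-KO and WT PILECs and in Men1-KO and WT mESCs, with a separate vertical range for each gene. In PILECs the Men1-KO points lie below the WT points for every gene except Irx3, and in mESCs no pair of genotype means is more than 0.37 apart.

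Zic1, a dorsal neural tube factor, read 11.30 and 11.53 in Men1-KO PILECs, against 12.48 and 12.38 in WT PILECs. In mESCs it read 4.52 and 4.62 without menin and 4.75 and 4.82 with it. The gene was thus high in all PILEC cultures and low in all mESC cultures, and the PILEC genotypes did not overlap. The difference in PILECs was -1.02 ± 0.10 (SE), a fold of 2.02 (adjusted p = 0.00306). Its second probe set gave -1.13.

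Zic4, the neighbour of Zic1, had the largest difference of the 9 genes in PILECs by the probe sets that stand for them. It read 7.34 and 7.0 in Men1-KO PILECs, against 8.80 and 8.56 in WT PILECs. The mESC arrays read 5.87 and 5.99 without menin and 5.94 and 5.24 with it. Both Men1-KO PILEC cultures thus lay nearer to the mESCs than the WT PILEC cultures did. The difference was -1.52 ± 0.22, a fold of 2.86 (adjusted p = 0.0105), and the second probe set gave -2.03, a fold of 4.09.

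Lhx2, the eye field and cortex factor, read 8.92 and 9.12 in Men1-KO PILECs and 10.16 and 9.92 in WT PILECs. Its mESC values were 5.61 and 5.34 in Men1-KO cells and 5.16 and 5.35 in WT cells. The PILEC genotypes were separated by more than the gap between cultures of either, with a difference of -1.02 ± 0.14 and a fold of 2.03 (adjusted p = 0.00792). Lhx2 has 1 probe set on the array.

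Lhx9, its closest relative in the set, was measured by 4 probe sets that gave different sizes. The probe set that represents the gene, 1431598_a_at, read 6.78 and 6.87 in Men1-KO PILECs, against 7.77 and 7.46 in WT PILECs. The same probe set read 6.50 and 6.24 in Men1-KO mESCs and 5.98 and 6.02 in WT mESCs. Its difference in PILECs was -0.79 ± 0.13, a fold of 1.73 (adjusted p = 0.0160), the smallest of the 4. Probe set 1429905_at read 7.17 and 7.43 in Men1-KO PILECs, against 9.40 and 9.17 in WT PILECs, a difference of -1.99 and a fold of 3.97. Probe sets 1419324_at and 1441313_x_at gave -1.82 and -1.19. The 4 probe sets had the same direction and all passed the test.

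Wnt8b, the hem ligand, read 6.04 and 6.48 in Men1-KO PILECs, against 7.69 and 7.53 in WT PILECs. In mESCs the values were 4.65 and 4.91 in Men1-KO cells and 4.86 and 4.99 in WT cells. The signal in Men1-KO PILECs lay between that of WT PILECs and that of the mESCs. The difference in PILECs was -1.35 ± 0.16, a fold of 2.55 (adjusted p = 0.00492). Probe set 1421439_at gave -1.06 and passed the test, and 1421440_at gave -0.19 and did not. The last of these also showed no rise in PILECs, with means of 4.94 in Men1-KO PILECs, 5.13 in WT PILECs, 5.34 in Men1-KO mESCs and 5.19 in WT mESCs.

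Pou4f1, the sensory neuron factor, had the smallest of the 6 falls by the probe sets that stand for the genes. It read 6.18 and 6.25 in Men1-KO PILECs, against 6.74 and 7.11 in WT PILECs. The mESC arrays read 6.47 and 6.45 in Men1-KO cells and 6.29 and 6.23 in WT cells. Men1-KO PILECs thus read within or below the range of the mESCs, and both WT PILEC arrays read above it. The difference in PILECs was -0.71 ± 0.12, a fold of 1.64 (adjusted p = 0.0182). A second probe set gave a larger difference with a wider error, -1.28, and did not pass the test (adjusted p = 0.0636).

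Emx2, En1 and Irx3 had 1 probe set each and were not called in either direction. Emx2, the cortical patterning factor, read 6.41 and 6.65 in Men1-KO PILECs, against 6.74 and 6.81 in WT PILECs. The interval of its difference ran from -0.63 to 0.14. En1, the gene of the midbrain border, read 4.35 and 4.49 in Men1-KO PILECs, against 4.70 and 4.60 in WT PILECs, with an interval from -0.45 to -0.01 before adjustment for multiple tests (adjusted p = 0.191). Irx3 was high in all PILEC cultures, at 10.08 and 10.06 in Men1-KO PILECs and 9.98 and 10.09 in WT PILECs. Its genotypes overlapped, and the interval from -0.28 to 0.35 leaves out a change of the size seen in Zic1 or Lhx2.

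**Figure D2:**
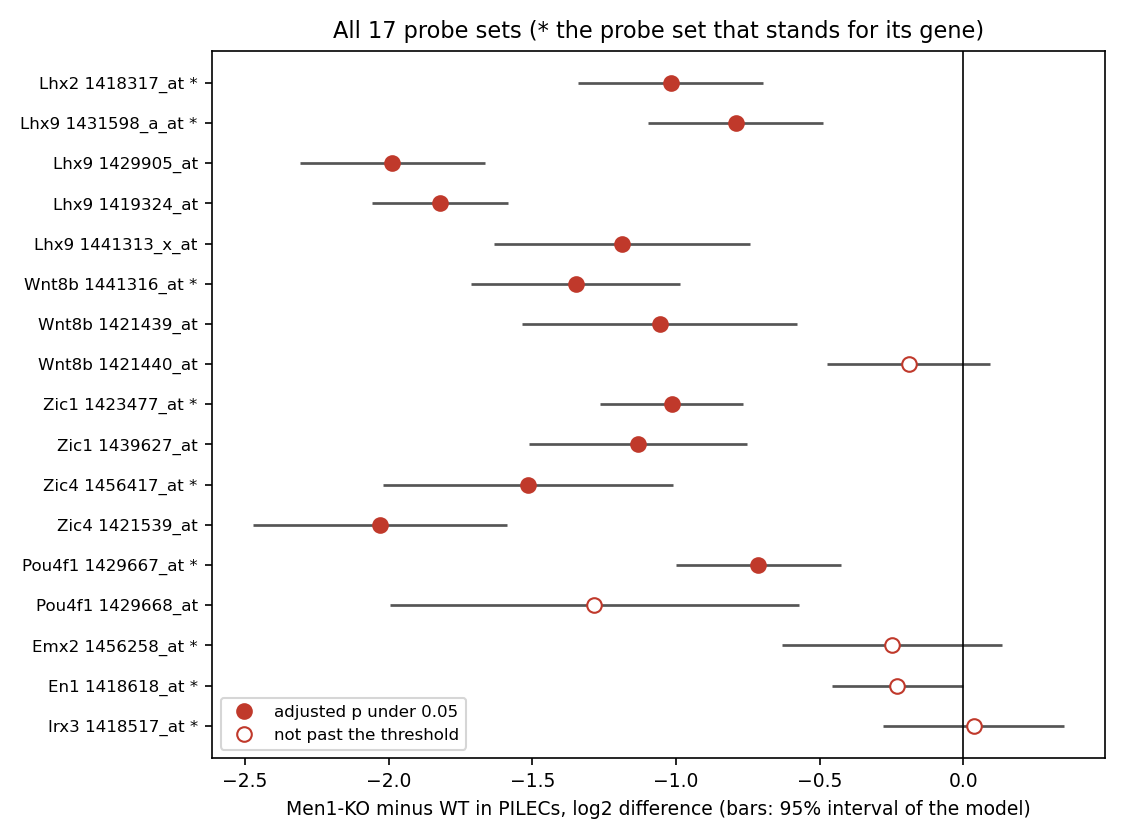
Log2 difference, Men1-KO minus WT in PILECs, for each of the 17 probe sets, with the 95% interval of the model (bars) and an asterisk at the probe set that represents its gene. Of the 17, 12 passed the test (filled points), all to the left of 0, and the 4 probe sets of Lhx9 range from -1.99 to -0.79.

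Counted by probe set, 12 of 17 were lower in Men1-KO PILECs and 0 were higher, while 2.56% of the 34945 probe sets with 1 gene symbol were lower. Probe sets of a gene read the same RNA and are not replicates of each other. The calls of single genes depended on the array number, and fewer of all genes were called too when a PILEC array was left out. Limma called 3 of the 9 genes without the first Men1-KO PILEC array (Wnt8b, Zic1 and Zic4), 3 without the second (Lhx2, Wnt8b and Zic1), 2 without the first WT PILEC array (Zic1 and Pou4f1) and 4 without the second (Lhx2, Lhx9, Wnt8b and Zic1), with all 6 genes still lower each time. Without moderation of the variances it called 1, Zic1, and 266 of all 18193 genes were lower, in place of 804.

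Striated muscle genes moved in the same comparison. Of 15 listed and measured, 11 were lower in Men1-KO PILECs and 0 were higher. Their summed level, as log2 of the sum of linear signals, was 12.0 and 11.6 in Men1-KO PILECs, against 13.3 and 13.7 in WT PILECs. Of 12 pluripotency genes, 6 were lower, with a summed level of 13.02 and 13.10 in Men1-KO PILECs and 13.62 and 13.46 in WT PILECs. No marker reads 0 on this scale, whose lowest value over all probe sets was 3.26. Of 19 neuronal genes, 2 were higher in Men1-KO PILECs (Syp and Syt1) and 0 were lower (6 and 1 at an unadjusted p under 0.05). Limma called 0 of 15 islet genes in either direction, with 4 higher and 2 lower at an unadjusted p under 0.05. Over all 18193 genes, 4230 had an unadjusted p under 0.05 in this comparison, both directions together. Of 10 endoderm and liver genes, 2 were higher and 1 was lower (4 and 1 at an unadjusted p under 0.05). Their summed level was 10.73 and 10.67 in Men1-KO PILECs, against 11.23 and 11.30 in WT PILECs. This sum leans on Ttr, the lower gene and the highest of the 10 in WT PILECs. Ttr averaged 8.47 in Men1-KO and 10.68 in WT PILECs, while the median difference of the 10 genes was 0.20. Of 11 fibroblast and mesenchyme genes, 1 was higher and 2 were lower. The part of the muscle and stem cell RNA in the result was not tested.

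In mESCs, limma called 0 of the 9 genes in either direction, while 2.36% of all genes were lower and 1.29% were higher. At an unadjusted p under 0.05 there was 1, Lhx9, which was 0.37 higher in Men1-KO mESCs (limma, adjusted p = 0.179). Over all 18193 genes, 3370 were under this unadjusted p, both directions together. The Men1-KO mESC arrays both lay below the WT arrays for 2 genes, Zic1 and Irx3, and both above for 2, Lhx9 and Pou4f1. These orders occurred in 24.9% and 24.1% of all genes. The intervals of the differences reached from -0.60 at the low end for Irx3 to 0.85 at the high end for Zic4, so a change of under 2-fold could have been missed.

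The mESC levels were low. On each group, the 95th percentile of 80 probe sets for olfactory and vomeronasal receptors, genes that these cells should not use, was taken as a guide to background. It was 6.91 in Men1-KO PILECs, 6.68 in WT PILECs, 6.52 in Men1-KO mESCs and 6.4 in WT mESCs. By the probe sets that stand for the genes, the mean of 4 of the 9 was above it in Men1-KO PILECs (Lhx2, Zic1, Zic4 and Irx3) and that of 8 in WT PILECs, all but En1. Another Lhx9 probe set, 1429905_at, was above it in Men1-KO PILECs too (7.30). In Men1-KO mESCs 0 of the 9 genes were above it and in WT mESCs 1 was, Irx3, at 6.50. Comparisons of the genotypes in mESCs were therefore made among signals within the receptor range, except for the WT mean of Irx3. Those of En1 were made within it throughout.

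**Figure D3:**
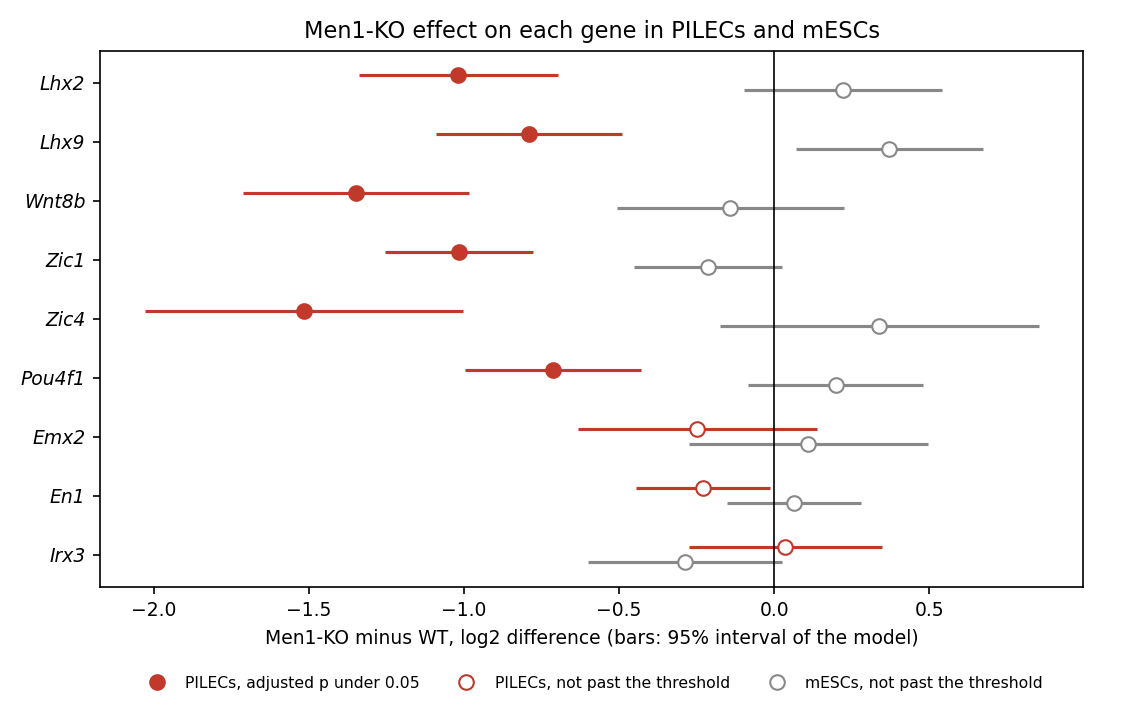
Log2 difference, Men1-KO minus WT, for each gene in PILECs (upper mark of each pair) and in mESCs (lower, grey), with 95% intervals of the model. The 6 filled points, from -1.52 for Zic4 to -0.71 for Pou4f1, are the PILEC differences that passed the test, and no mESC difference did.

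The effects of the genotype in the cell types were then compared. The difference between the Men1-KO effects (PILECs minus mESCs) was below 0 and passed the test for 6 genes and was above 0 for 0, against 1.57% and 1.5% of all genes. They were Lhx2, Lhx9, Wnt8b, Zic1, Zic4 and Pou4f1. The intervals for the others ran from -0.90 to 0.19 for Emx2, from -0.60 to 0.01 for En1 and from -0.12 to 0.76 for Irx3. This test and that in PILECs share the 4 PILEC arrays. Limma called 0 of the 9 genes without moderation of the variances, and 0 to 2 without any 1 of the 4 PILEC arrays or of the 2 WT mESC arrays.

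All 9 genes rose with differentiation of WT cells, where 27.8% of all genes were higher. In Men1-KO cells 8 of the 9 rose, where 28.9% were higher. The log2 signal of Zic1 was higher by 6.84 in Men1-KO cells and by 7.64 in WT cells. That of Lhx2 was higher by 3.54 in Men1-KO cells and by 4.78 in WT cells, and that of Zic4 by 1.24 in Men1-KO cells and by 3.09 in WT cells. The difference for Irx3 was 3.86 in Men1-KO cells and 3.54 in WT cells.

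Wnt8b rose by 1.48 in Men1-KO cells and by 2.68 in WT cells, and Lhx9 rose by 0.45 in Men1-KO cells and by 1.62 in WT cells. The Lhx9 values depended on the probe set: 1429905_at gave 2.41 in Men1-KO cells and 4.51 in WT cells, and the mean of the 4 Lhx9 probe sets gave 1.61 in Men1-KO cells and 3.25 in WT cells. Emx2 rose by 1.52 without menin and by 1.88 with it, and En1 rose by 0.74 without menin and by 1.03 with it. Pou4f1 was the exception, with a difference of -0.24 in Men1-KO cells that did not pass the test (adjusted p = 0.113) and a rise of 0.67 in WT cells. Its second probe set had the other sign in Men1-KO cells, at 0.47, which did not pass the test either, and gave 1.59 in WT cells. The mESC level of 9 genes in Men1-KO cells and of 8 in WT cells lay within the receptor range, so these differences start from signals near background and are no measure of the true fold.

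**Figure D4:**
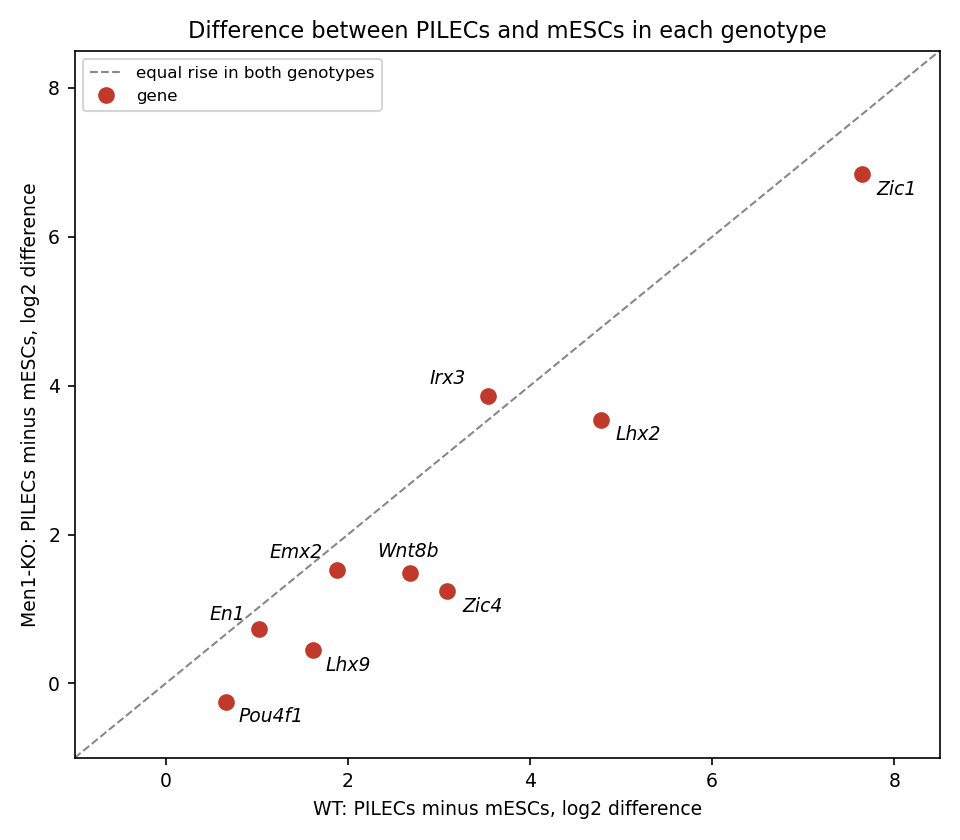
Log2 difference, PILECs minus mESCs, for each gene in Men1-KO cells (vertical axis) against WT cells (horizontal axis), with a dashed line where both are equal. Irx3 (3.86 and 3.54) lies above the line and the other 8 genes lie below it, Zic4 (1.24 and 3.09) farthest.

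The families of these genes were not uniform. Of the Zic genes, Zic5 was lower in Men1-KO PILECs (-1.13 ± 0.13, adjusted p = 0.00492), while Zic2 gave -0.18 and did not pass the test. Zic5 and Zic2 were also lower in Men1-KO mESCs (-0.86 and -0.56), where Zic1 and Zic4 were not called. Zic5 read 8.10 and 7.93 in Men1-KO PILECs, 9.15 and 9.15 in WT PILECs, 8.65 and 9.04 in Men1-KO mESCs and 9.75 and 9.65 in WT mESCs. It was therefore expressed in stem cells and lower without menin in both cell types, a pattern unlike that of Zic1.

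En2, the other Engrailed gene and also a mark of the midbrain border, read 6.95 and 7.02 in Men1-KO PILECs, against 8.18 and 7.96 in WT PILECs. It fell by 1.09 ± 0.15 (adjusted p = 0.00898), where its paralog En1 lay within the receptor range. In mESCs En2 differed by 0.30 and was not called, and the difference between the effects was -1.38 (adjusted p = 0.0218). Lhx8, a LIM factor of ventral forebrain neurons, fell by 0.71 in PILECs, with means of 4.99 in Men1-KO and 5.70 in WT PILECs that both lie within the receptor range, while Lhx1, Lhx5 and Lhx6 differed by 0.04, -0.02 and -0.11 and were not called.

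Of the other Iroquois genes 1 was called. Irx4 was higher in Men1-KO PILECs by 0.68 ± 0.14 (adjusted p = 0.0331), at means of 5.94 in Men1-KO and 5.26 in WT PILECs that lie within the receptor range, and Irx1, Irx2, Irx5 and Irx6 differed by 0.52, 0.16, 0.28 and 0.00 and were not called. Irx5 lies in the same gene cluster as Irx3 and rose with differentiation by 3.79 in Men1-KO cells and by 3.66 in WT cells, close to the values of Irx3. Its levels were 10.01 and 10.19 in Men1-KO PILECs and 9.88 and 9.77 in WT PILECs. Emx1, Pou4f3 and Wnt8a differed by -0.05, -0.39 and -0.14 in PILECs and were not called. Pou4f2 was not analysed here.

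**Figure D5:**
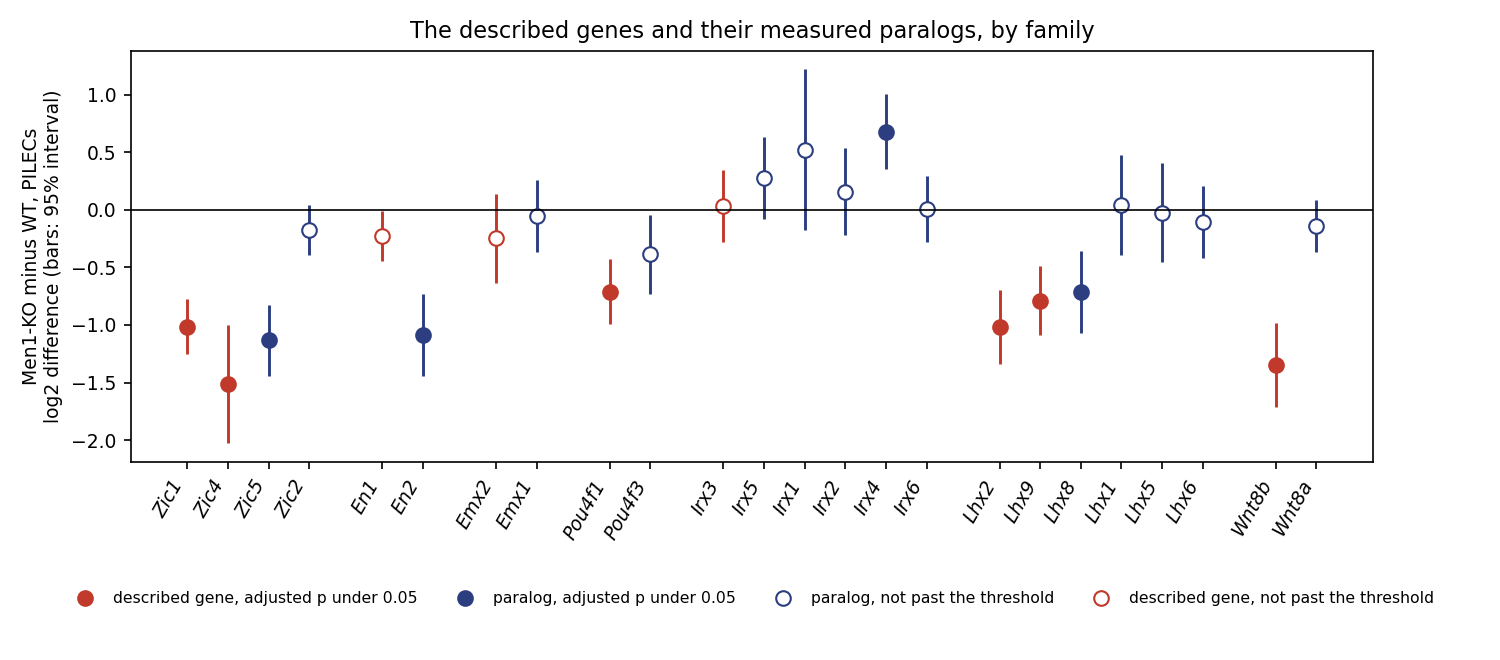
Log2 difference, Men1-KO minus WT in PILECs, for the 9 genes (red) and their 15 measured paralogs (blue), grouped by family, with 95% intervals of the model. Filled points passed the test: Zic5, En2 and Lhx8 lie below 0 beside the 6 described genes, and Irx4 (0.68) lies above it.

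Other genes were counted in 13 lists, for neural regions and cells and for limb, gonad and neural crest, where some of the 9 genes also work, without the 9 genes. Of 172 measured genes, 11 were higher and 25 were lower in Men1-KO PILECs, with a median of -0.06, against -0.01 for all genes. These counts have to be read against 4.42% of all genes lower and 2.26% higher, and for some lists the count is 1 or 2 genes.

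Among genes of the roof plate, cortical hem and dorsal neural tube, the territory of Wnt8b and the Zic genes, 0 of 19 were higher and 6 were lower in Men1-KO PILECs. The largest falls were in Ttr, the transthyretin gene of choroid plexus and of liver (-2.21), and in the Wnt signal enhancers Rspo3 (-1.73) and Rspo1 (-1.61). Ttr read 8.55 and 8.39 in Men1-KO PILECs, against 10.62 and 10.73 in WT PILECs. Rspo3 read 6.24 and 6.45 in Men1-KO PILECs and 8.07 on both WT PILEC arrays. The list's median was -0.18.

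Of 13 genes of the ventral neural tube, 5 were higher, 1 was lower and 7 were not called. Olig1, a factor of motor neuron and oligodendrocyte progenitors, was higher by 1.42 ± 0.19. Shh, the ventralising signal, was higher by 0.88, at 10.64 and 10.74 in Men1-KO PILECs, against 9.79 and 9.81 in WT PILECs. Dbx1, a factor of ventral interneuron progenitors, fell by 1.16. The median of the list was 0.34. Lists share genes, and this one overlaps with the midbrain list and with the endoderm and liver list. The kind of cell that carried these differences was not tested.

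Of 20 forebrain and eye field genes, 1 was higher and 2 were lower in Men1-KO PILECs. The lower ones were Otx2, a head organiser gene (-1.31), and Eomes, a factor of cortical intermediate progenitors and of early endoderm (-0.97), and the higher one was the eye field gene Six3 (0.57). Otx2 was also lower in Men1-KO mESCs, at 7.67 and 7.92, against 9.36 and 9.34 in WT mESCs. Of 13 diencephalon genes 3 were lower, namely Barhl1 (-1.29), Gbx2 (-1.07) and Tcf7l2 (-0.81), and 0 were higher. Of 13 midbrain and isthmus genes 4 were lower and 1 was higher, with En2, Pax8 (-0.96) and Foxa2 (0.88) as the largest. In PILECs of both genotypes the means of Gbx2 and Pax8 lay within the receptor range.

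Of 17 sensory neuron and placode genes, the setting of Pou4f1, 3 were lower and 0 were higher, led by the proneural factor Neurog2 (-1.58). Its cultures were far apart, at 8.12 and 9.25 in Men1-KO PILECs, against 10.44 and 10.09 in WT PILECs. The hindbrain list had 2 of 8 lower and 0 higher. Limma called 0 of the 9 LIM cofactor and LIM-only genes, through which LIM factors such as Lhx2 and Lhx9 act, in PILECs, with 3 lower at an unadjusted p under 0.05. Over all 18193 genes, 4230 were under this unadjusted p, both directions together. General neural progenitor genes had 1 of 16 lower, the Notch ligand Dll1, and 0 higher.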

How the data were processed

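The deposited values were used: 1 log2 value per probe set and array, made by the authors from Affymetrix arrays. RMA and Partek are named in the submitters' processing notes, while the methods name Microarray Analysis Suite, so which software made the values is open, and versions of RMA and Partek are not given in the sources used here. Control probe sets (64) and those with no symbol (9160) or several symbols (932) were left out. Symbols are those of the platform annotation. For 18193 genes, limma 3.58.1 (lmFit and eBayes, R 4.3.3) fitted 4 group means, with Benjamini-Hochberg adjustment over all of them and a threshold of 0.05. The same fit was run over 34945 probe sets. It was tested on simulated data first. With 2 arrays against 2 an exact permutation test cannot go below 0.333. The number of arrays limits the precision. Groups and replicate numbers were read from the sample titles.

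The 9 genes, the lists and the tests were chosen with earlier results of these data known. All 9 were described in every comparison. From each list up to 3 genes past the threshold were named, those with the largest differences, and paralogs were named whatever their result. Ins2, Pdx1, Chgb, Sst, Neurod1, Ppy and Pcsk1 were named outside this rule, after their values were seen. Values in figures were drawn with matplotlib 3.10.9.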

Additional observations from a re-analysis of the deposited data

Results flagged for a closer look

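For 6 genes the effect of Men1 loss in PILECs differed from that in mESCs by a test of the difference itself (limma, 18193 genes). The difference between the effects, PILECs minus mESCs, was -1.85 for Zic4 (interval -2.58 to -1.13, adjusted p = 0.0268). It was -1.24 for Lhx2 (adjusted p = 0.0222), -1.21 for Wnt8b (adjusted p = 0.0344) and -1.16 for Lhx9 (adjusted p = 0.0223). It was -0.91 for Pou4f1 (adjusted p = 0.0378) and -0.80 for Zic1 (adjusted p = 0.0335). Each rests on 8 arrays, and mESC signals of all 6 genes lay within the range of the receptor probe sets. In the fit over all probe sets 9 of 17 passed the same test below 0, against 0.787% of all 34945. Among the 9 were the 4 of Lhx9 and both of Zic4, and probe sets of a gene are not replicates. Pou4f1 passed with neither probe set (limma, adjusted p = 0.0513 and 0.256).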

How the results depend on the processing

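The numbers of called genes moved most without moderation of the variances: 1 of 9 was then lower in Men1-KO PILECs, Zic1, and limma's ordinary linear model called 0 differences between the effects, in place of 6 each. Over all 18193 genes, 266 were then lower in PILECs, in place of 804. For the difference between the effects, 27 were below 0, in place of 285. Leaving out 1 array at a time gave 2 to 6 called genes in PILECs, 0 to 1 in mESCs, 9 to 9 for the rise in WT cells, 7 to 9 for that in Men1-KO cells and 0 to 6 for the difference between the effects. The last was 0 without the first Men1-KO PILEC array, the second WT PILEC array or the second WT mESC array, 1 without the first WT PILEC or the first WT mESC array, and 2 without the second Men1-KO PILEC array. In mESCs the 1 was Irx3 (-0.50, adjusted p = 0.0269) without the second Men1-KO mESC array. Zic1 kept its call in PILECs under all 18 alternatives (highest adjusted p = 0.0423), and all 6 called genes kept their direction. Without either WT PILEC array Pou4f1 was lower in Men1-KO PILECs than in Men1-KO mESCs (adjusted p = 0.0384), and with the mean of its probe sets that difference was 0.11. Signs turned only for values called in neither fit. With arrays left out, Irx3 in PILECs ranged from -0.0164 (without the first WT PILEC array) to 0.0887. In mESCs Emx2 ranged from -0.129 (without the first Men1-KO array, and -0.00224 without the second WT array) to 0.350, and without the second WT array Zic4 was -0.0109 (range to 0.688) and En1 was -0.00497 (to 0.134). The cause of these changes was not tested.

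The sources used here do not state whether replicate numbers pair the arrays, and correlations from 2 arrays a group cannot settle it. Deviations of same-numbered arrays correlated at -0.23 between Men1-KO and WT PILECs and at -0.28 between Men1-KO and WT mESCs. They correlated at 0.209 between the Men1-KO and at 0.064 between the WT PILECs and mESCs. With the replicate block, 6 genes were lower in PILECs and 4 differences between the effects passed, and with the crossed block, added after seeing the data, both were 6. The replicate block changed no other count by over 1.5 times. With the threshold the study states, 4 genes were lower in PILECs. Of genes with a group mean of at least 7 (12062, with 6 of the 9), 5 were, as were 1259 of all 12062. A second quantile normalization kept all counts of the 9 genes and changed the split over all genes in PILECs to 627 higher and 732 lower, against 412 and 804. For the difference between the effects no fit on fewer groups exists.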

Other observations

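The genes whose pattern over the 8 arrays was most like each of the 6 were found by the root mean square difference of log2 profiles centred on their own mean. For Zic4 they were the embryonic and perinatal myosin genes Myh8 (0.271) and Myh3 (0.301). Myh3 read 7.82 and 7.47 in Men1-KO PILECs, against 9.43 and 9.83 in WT PILECs. For Lhx2 the nearest gene was the Hox cofactor Meis1 (0.185), at 9.56 and 9.67 in Men1-KO PILECs and 10.85 and 10.59 in WT PILECs. Wnt8b was nearest to the transcription factor gene Ebf1 (0.158), Lhx9 to Rsph9 (0.136), Zic1 to the cadherin gene Cdh11 (0.267) and Pou4f1 to Gse1 (0.109). The second nearest were 6330403K07Rik for Lhx2, Hoxb5os for Lhx9, Nalcn for Wnt8b, Igfbp5 for Zic1 and Scd1 for Pou4f1.

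Lists for other tissues that use some of these genes were also counted in Men1-KO PILECs, where 4.42% of all genes were lower and 2.26% were higher. Of 15 limb mesenchyme genes 3 were lower, led by Meis1 (-1.10) and Prrx1 (-0.99), and Pitx1 (0.88) was higher. Of 13 genes of intermediate mesoderm and gonad 2 were lower and Gata4 was higher by 1.34, at 7.70 and 7.68 in Men1-KO PILECs, against 6.32 and 6.39 in WT PILECs. Of 8 neural crest genes Sox10 was higher (0.72) and Snai2 lower (-0.77).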
